A study of Homo sapiens with 6 samples.

Results

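The 10 alpha and beta tubulin genes examined here were the alpha isotypes TUBA1A, TUBA1B, TUBA1C and TUBA4A and the beta isotypes TUBB, TUBB2A, TUBB2B, TUBB3, TUBB4B and TUBB6. They were taken by name, with no threshold on their measured values, from a table of 28563 genes whose Ensembl identifiers were mapped to GENCODE symbols, and all 10 were found in it. The samples were 3 dishes of cells labelled HepG2, an established human line from a liver tumor, treated with 336 µM PD (polydatin, a glucoside of resveratrol) for 24 h, and 3 dishes given the solvent DMSO for the same time. No genetic change or other agent separated the groups, and each dish gave 1 library of poly(A) RNA. The values are FPKM, fragments scaled to the length of the gene and to the total of the library. Levels set side by side between genes therefore depend on the gene lengths used. Between libraries the summed FPKM of all genes was not the same, at 252344 to 255022 in DMSO and 263094 to 265893 in PD.

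Alpha and beta tubulin form the dimer that polymerizes into microtubules, the filaments of the mitotic spindle, of intracellular transport and of cilia. Vertebrate cells make each subunit from several genes, called isotypes, which are nearly alike over the body of the protein and differ mostly in a short acidic tail at the carboxyl end. That tail lies on the outer surface of the microtubule, where motors, severing enzymes and tubulin-modifying enzymes meet it. In most cells the isotypes are used in a mixture that is typical of the cell type, with TUBB3 and TUBB2B known mainly from neurons.

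The ends of the coding sequences show how TUBA1C and TUBA4A differ at the residue on which the tyrosination cycle acts. The last 45 coding bases, 15 codons of the GENCODE transcript on hg38 before the stop codon, are printed with the last codon in capitals.
TUBA1C: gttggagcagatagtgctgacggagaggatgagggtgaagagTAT
TUBA4A: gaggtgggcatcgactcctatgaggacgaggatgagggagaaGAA
TUBA1C ended on TAT, a tyrosine codon. TUBA4A ended on GAA, a glutamate codon, so its product is made without the terminal tyrosine that VASH1 removes and TTL puts back. Over the whole coding sequence, TUBA1A and TUBA1B were identical at 97.2% of aligned bases, TUBA1B and TUBA1C at 96.8%, and TUBA1B and TUBA4A at 85.7%.

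The beta tails are printed over the same length of 45 bases with the codons for aspartate and glutamate (GAT, GAC, GAA and GAG) in capitals, because they give the tail its acidity; enzymes add glutamate chains to glutamates among them.
TUBB: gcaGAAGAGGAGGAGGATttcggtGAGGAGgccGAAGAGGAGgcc
TUBB4B: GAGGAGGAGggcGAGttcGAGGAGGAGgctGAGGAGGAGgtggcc
TUBB2A: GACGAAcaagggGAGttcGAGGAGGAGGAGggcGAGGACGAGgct
TUBB2B: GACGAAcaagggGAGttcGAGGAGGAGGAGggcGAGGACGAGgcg
TUBB3: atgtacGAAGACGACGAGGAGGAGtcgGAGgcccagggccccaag
TUBB6: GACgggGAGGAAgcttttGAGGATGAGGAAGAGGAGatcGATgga
All of these tails except that of TUBB3 held 10 acidic codons among the 15, and TUBB3 held 7. TUBB2A and TUBB2B differed over this stretch in the last codon alone, GCT or GCG, and their coding sequences were 98.2% identical, whereas TUBB and TUBB4B, the most abundant pair in these cells, were 84.4% identical. The likeness of the sequences bears on the counting. Of all windows of 150 bases in the exons, the length of 1 read, 67.7% for TUBB2A and 80.2% for TUBB2B occurred once in hg38, compared with 91.4% to 96.3% for TUBA1A, TUBA1B and TUBA1C, 99.4% for TUBB3 and 100% for TUBA4A, TUBB, TUBB4B and TUBB6. Values of TUBB2A and TUBB2B are therefore uncertain where reads could have been shared between them.

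In both groups, tubulin transcripts were mainly those of TUBB4B and TUBB. In DMSO the order of mean FPKM was TUBB4B, TUBB, TUBA1C, TUBA1B, TUBA4A, TUBB6, TUBA1A, TUBB2A, TUBB3 and TUBB2B, and no neighbors in this order overlapped between libraries. In PD-treated cells the same isotypes led, TUBA1C and TUBA1B overlapped, and so did TUBB2A and TUBA1A, which stood in the reverse of their DMSO order. The plot of FPKM by library shows that the isotypes spanned a wide range and that the 3 libraries of a group lay close together.

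**Figure D1:**
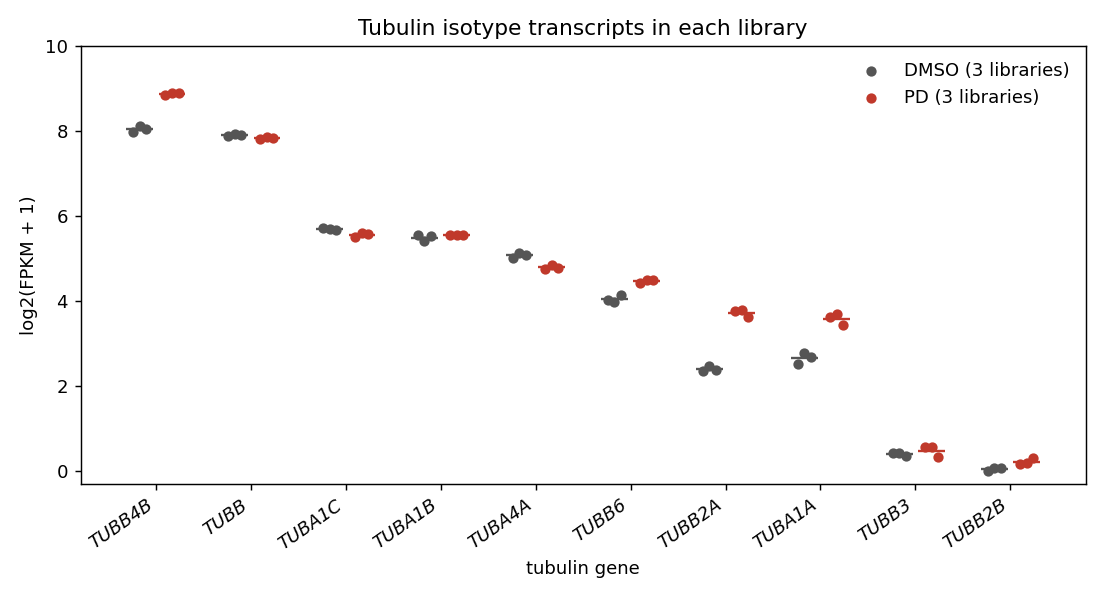
Levels of the 10 tubulin isotypes in each of the 6 libraries, as log2(FPKM + 1) on the y axis, with genes on the x axis in order of their mean. Points are libraries (DMSO in grey, PD in red) and short lines are group means; TUBB4B, TUBB2A, TUBA1A and TUBB6 are clearly higher in all PD libraries, whereas TUBB, TUBA1B and TUBA1C differ little.

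Each gene was tested for a difference between PD and DMSO in limma, on the log2(FPKM + 1) of 14400 genes whose mean reached 0.5 FPKM, and p-values were adjusted over all 14400 (Benjamini-Hochberg). Of the 10 isotypes, 8 passed this minimum, and TUBB2B and TUBB3 did not. With an adjusted p up to 0.05 taken as a call, TUBB2A, TUBA1A, TUBB4B and TUBB6 were higher in PD-treated cells, TUBA4A and TUBA1C were lower, and TUBA1B and TUBB were not called. PD moved a large part of the transcriptome, since 58.1% of all tested genes were called, 31.9% as higher and 26.2% as lower, so 6 calls among 8 isotypes is not far from the background. On this log2(FPKM + 1) scale, TUBB2A alone also changed by 2-fold or more, as 3.61% of tested genes did. The pseudocount of 1 lessens the change of low genes, and the isotypes past 2-fold were 2 with a pseudocount of 0.1, TUBA1A being added. They were 3 in limma voom on whole fragments, TUBB2B too. That fit kept genes with at least 10 fragments in at least 3 libraries. TUBB2B reached 10 only in the PD libraries, so it entered through the group where it is high, and its call there is no support. All 8 tested isotypes had groups that did not overlap, which was also true of 65.4% of all tested genes. The median log2 fold change of the 8 was 0.24, against 0.01 over all tested genes.

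TUBB4B (chr9:137241287-137243707 in hg38, plus strand) encodes a beta isotype found in most tissues and abundant in ciliary axonemes. Its FPKM was 249.7, 275.2 and 264.4 in the DMSO libraries and 458.0, 474.3 and 471.9 in the PD libraries. Every PD library was thus far above every DMSO library, with means of 263.1 ± 12.8 and 468.1 ± 8.83 (SD, n = 3 each), 1.78-fold. The log2 fold change was 0.83 with an SE of 0.04, at an adjusted p of 5.8e-06 by limma. Fragments counted on the gene numbered 9106 to 9737 per library in DMSO and 16246 to 17551 in PD, so counting error was small.

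TUBB (chr6:30717435-30725538, plus strand) encodes the other abundant beta isotype, a general one that is prominent in dividing cells. Its FPKM was 233.5, 241.2 and 238.4 in DMSO and 224.7, 230.0 and 227.1 in PD. The PD libraries were all a little lower, with means of 237.7 ± 3.93 and 227.2 ± 2.64 (SD, n = 3 each). The log2 fold change of -0.06 had a 95% interval of -0.12 to -0.01 and did not pass the threshold (adjusted p = 0.061 by limma), though it did under median-of-ratios scaling (adjusted p = 0.040) and upper quartile scaling (adjusted p = 0.0054). The ratio of TUBB4B to TUBB was 1.07, 1.14 and 1.11 in DMSO and 2.04, 2.06 and 2.08 in PD, so that per length TUBB4B went from slightly above TUBB to about 2.06 times its level. In fragments not divided by length, TUBB4B held 28.2% of the 10 isotypes in DMSO and TUBB 40.5%, and in PD they held 41.4% and 32.0%, so the order in DMSO rests on the gene lengths used.

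TUBB2A (chr6:3153497-3157544, minus strand), a beta isotype best known from brain, showed the highest fold change of the 8. Its FPKM was 4.06, 4.53 and 4.20 in DMSO and 12.5, 12.8 and 11.3 in PD. No PD library came near the DMSO range, and the ratio of the means was 2.86. On the log2(FPKM + 1) scale the change was 1.32 with an SE of 0.06 (adjusted p = 5.65e-06 by limma). Its near copy TUBB2B (chr6:3223324-3231730, minus strand) was close to absent, at 0, 0.054 and 0.053 FPKM in DMSO and 0.13, 0.13 and 0.22 in PD. At the step nearest the annotated length these values are 0 to 16 fragments in a library, and the isotype was below the minimum for testing.

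TUBA1A (chr12:49184686-49189080, minus strand) encodes the alpha isotype that prevails in young neurons. It stood at 4.69, 5.84 and 5.45 FPKM in DMSO and at 11.3, 12.01 and 9.77 in PD, again without overlap. The ratio of the means was 2.07, but on the log2(FPKM + 1) scale, which lessens the change of genes with low levels, it was 0.93 with an SE of 0.09 (adjusted p = 0.000129 by limma). It was therefore short of 2-fold here and passed it with a pseudocount of 0.1, in limma voom on whole fragments, and without PD replicate 3, where it was 1.005. TUBB6 (chr18:12307669-12344320, plus strand), a divergent beta isotype of non-neuronal tissues, was at 15.3, 14.8 and 16.7 FPKM in DMSO and 20.4, 21.6 and 21.6 in PD. It rose 1.36-fold (log2 fold change 0.42, SE 0.05, adjusted p = 0.000341 by limma).

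The alpha isotypes with higher levels than TUBA1A moved little or fell. TUBA4A (chr2:219249710-219277902, minus strand), the isotype without the tyrosine codon, was at 31.5, 34.1 and 33.0 FPKM in DMSO and at 25.8, 27.9 and 26.2 in PD. It fell by 0.29 on the log2 scale (SE 0.05, adjusted p = 0.00114 by limma), to 0.811 of its DMSO mean. TUBA1C (chr12:49188736-49274600, plus strand), a general isotype, was at 51.6, 50.5 and 50.02 FPKM in DMSO and 44.3, 47.7 and 46.5 in PD. It fell by 0.13 on the log2 scale (SE 0.04, adjusted p = 0.0157 by limma), a small difference that lost its call when DMSO replicate 1 was left out (-0.12, adjusted p = 0.052). TUBA1B (chr12:49127782-49131397, minus strand), the other general alpha isotype, was at 45.6, 41.2 and 45.1 FPKM in DMSO and 45.7, 46.1 and 46.2 in PD. Its log2 fold change of 0.07 had a 95% interval of -0.04 to 0.17 (adjusted p = 0.229 by limma), and its sign turned under upper quartile scaling, at -0.02.

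TUBB3 (chr16:89921392-89938761, plus strand), the neuron-associated beta isotype, was at 0.34, 0.34 and 0.28 FPKM in DMSO and 0.47, 0.46 and 0.25 in PD. The groups overlapped, and with 18 to 38 fragments per library, at the shortest step that gives whole numbers, a modest difference was not detectable at this depth. Exons of all 10 isotypes overlap those of another annotated gene, and the setting for strand in the counting is not given in the sources used here. The overlap was over 20% of exon bases for 3 isotypes, namely TUBA1B with the antisense TUBA1B-AS1 (43.96%, at most 0.26 FPKM in a library), TUBB3 with an unnamed gene on its own strand (21.3%), and TUBB6 with AFG3L2 (21.2%, 15.03 ± 0.46 FPKM in DMSO and 15.4 ± 0.22 in PD). TUBA1C and TUBA1A overlap each other over 345 bases at their ends.

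**Figure D2:**
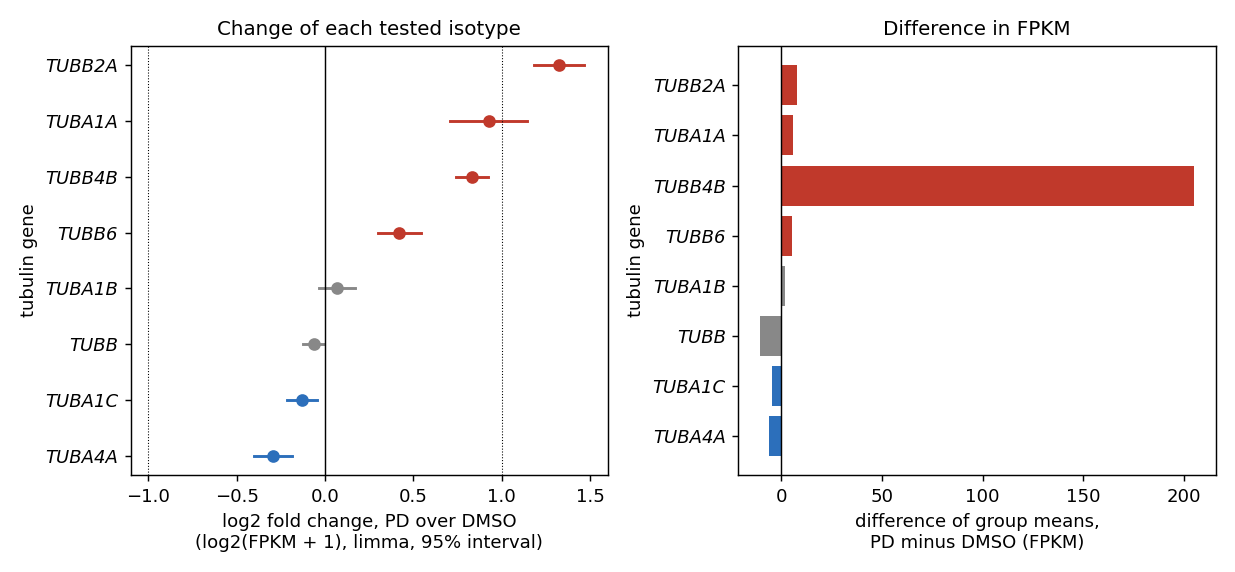
Left, log2 fold change of PD over DMSO for the 8 tested isotypes on the log2(FPKM + 1) scale, with 95% intervals from limma and dotted lines at a 2-fold change; right, the difference of the group means in FPKM for the same genes. Red is higher, blue lower and grey not called (adjusted p threshold 0.05). TUBB2A had the highest log2 fold change, at 1.32, while TUBB4B had by far the longest bar, at 205.0 FPKM.

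The summed FPKM of the 10 isotypes was 636.2, 667.7 and 657.6 in DMSO and 843.3, 872.9 and 861.0 in PD, a mean of 653.8 ± 16.1 against 859.1 ± 14.9 (SD, n = 3 each). All PD libraries had more tubulin transcript than any DMSO library, 1.31-fold, and the difference of the means was 205.2 FPKM. As a percent of the summed FPKM of the library, the 10 isotypes were at 0.258 ± 0.007 in DMSO and 0.325 ± 0.004 in PD, 1.26-fold. TUBB4B alone differed by 205.0 FPKM, and the sum of the other 9 was 390.7 ± 3.67 in DMSO and 391.0 ± 6.85 in PD, with overlap between the groups. This overlap holds for FPKM as given. Relative to the summed FPKM of the library, which was higher in PD, the sum of the other 9 was lower in every PD library. Among those 9, differences of 7.92 FPKM for TUBB2A, 5.71 for TUBA1A and 5.60 for TUBB6 stood against -10.5 for TUBB, -6.22 for TUBA4A and -4.52 for TUBA1C. Thus TUBB2A and TUBA1A, with the largest fold changes of the 8 tested isotypes, added little to the pool beside TUBB4B.

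This split the subunits. The beta sum was 502.9, 536.1 and 524.0 FPKM in DMSO and 716.2, 739.2 and 732.3 in PD, 1.40-fold, whereas the alpha sum was 133.3, 131.6 and 133.5 in DMSO and 127.1, 133.7 and 128.6 in PD, with overlap. The beta to alpha ratio of transcript was 3.92 ± 0.15 in DMSO and 5.62 ± 0.08 in PD, every PD library being higher. The level of this ratio rests on the gene lengths used. Relative to the summed FPKM of the library, which was higher in PD, the alpha sum was lower in every PD library, so its overlap holds for FPKM as given. Within the alpha class the mixture changed. TUBA1A went from 4.01% ± 0.47 to 8.49% ± 0.78 of alpha FPKM, and TUBA4A from 24.7% ± 1.17 to 20.5% ± 0.32.

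As shares of the summed FPKM of the 10 isotypes, TUBB4B took 39.2%, 41.2% and 40.2% in the DMSO libraries and 54.3%, 54.3% and 54.8% in the PD libraries. TUBB took 36.7%, 36.1% and 36.3% in DMSO and 26.6%, 26.3% and 26.4% in PD. The mean share of TUBB therefore differed by -9.91 percentage points and its mean FPKM by -4.41%, with a larger total in the denominator. The pair held 76.6% ± 0.70 of the total in DMSO and 80.9% ± 0.25 in PD.

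The shares of TUBA1C, TUBA1B and TUBA4A were lower in every PD library. TUBA1C went from 7.76% ± 0.31 to 5.37% ± 0.11, TUBA1B from 6.73% ± 0.51 to 5.35% ± 0.07, and TUBA4A from 5.02% ± 0.08 to 3.10% ± 0.09. For TUBA1B this holds for the total only, because its share of alpha FPKM was higher in PD, at 35.4% ± 0.83 against 33.1% ± 1.57. TUBA1A went from 0.81% ± 0.07 to 1.28% ± 0.13 and TUBB2A from 0.65% ± 0.02 to 1.42% ± 0.09, both higher in all PD libraries.

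The share of TUBB6 was 2.39% ± 0.16 in DMSO and 2.47% ± 0.05 in PD and overlapped, although its FPKM was higher. In fragments not divided by length the share of TUBB6 was 3.26% ± 0.20 and 3.66% ± 0.07, without overlap. TUBB3 held 0.049% ± 0.006 and 0.046% ± 0.015, with overlap, and TUBB2B held 0.005% ± 0.005 and 0.019% ± 0.006. In all, 8 of 10 shares did not overlap between the groups, 4 higher and 4 lower in PD. In FPKM, 65.4% of all tested genes did not overlap either. Shares of 1 total depend on each other, so the larger total with TUBB4B lowers the other shares. TUBA1B had a lower share though its FPKM was higher in every PD library. The 8 are thus not 8 separate results. With 3 libraries against 3, the exact two-sided permutation test cannot give a p below 0.1, and this was its value for each of those 8 (0.125 after Benjamini-Hochberg adjustment over the 10 isotypes); it was 0.6 for TUBB6 and 0.9 for TUBB3.

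**Figure D3:**
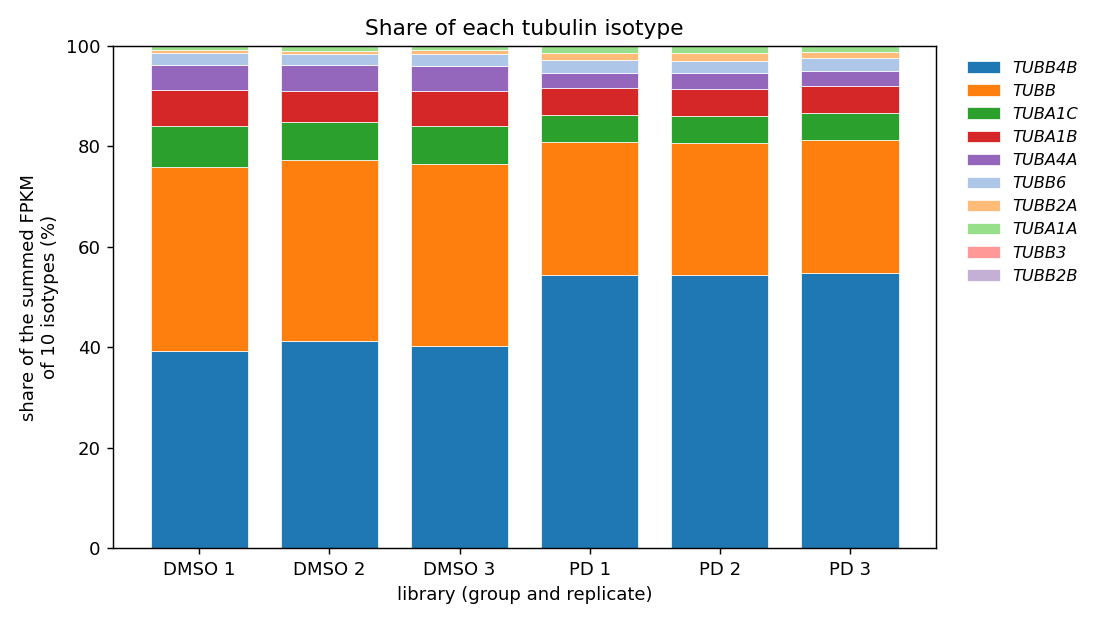
Share of each isotype in the summed FPKM of the 10 isotypes (y axis, %), one stacked bar for each library. The lowest segment, TUBB4B, reaches 39.2% to 41.2% in DMSO but 54.3% to 54.8% in PD. The segment of TUBB above it is shorter in all PD libraries.

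Because TUBB4B, TUBB2A and TUBA1A had the 3 largest changes, the 250 bases before their transcription starts are printed (RefSeq, GRCh38.p14, each on its own gene's strand). These are chr9:137241037-137241286 (plus) for TUBB4B, chr6:3157545-3157794 (minus) for TUBB2A and chr12:49189081-49189330 (minus) for TUBA1A. Capitals mark CCAAT on either strand (ATTGG on the strand printed), the box bound by the factor NF-Y, which is common in promoters of genes of the cell cycle.
TUBB4B: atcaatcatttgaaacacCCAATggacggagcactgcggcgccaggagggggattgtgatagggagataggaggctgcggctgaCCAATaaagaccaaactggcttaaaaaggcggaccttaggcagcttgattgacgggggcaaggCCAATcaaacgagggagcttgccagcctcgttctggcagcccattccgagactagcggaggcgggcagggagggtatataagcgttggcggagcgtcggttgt
TUBB2A: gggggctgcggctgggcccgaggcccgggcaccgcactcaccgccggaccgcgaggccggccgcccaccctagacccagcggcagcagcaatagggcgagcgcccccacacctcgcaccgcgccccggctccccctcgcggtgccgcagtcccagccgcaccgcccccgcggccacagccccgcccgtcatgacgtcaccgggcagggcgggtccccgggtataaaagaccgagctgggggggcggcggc
TUBA1A: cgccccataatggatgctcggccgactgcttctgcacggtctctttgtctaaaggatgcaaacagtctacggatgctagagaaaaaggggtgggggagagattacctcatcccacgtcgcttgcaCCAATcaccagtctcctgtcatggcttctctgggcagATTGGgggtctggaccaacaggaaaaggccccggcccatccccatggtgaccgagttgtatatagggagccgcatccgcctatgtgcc
In the window of 300 bases from 250 before to 50 after the start, CCAAT was found 3 times for TUBB4B, 2 times for TUBA1A and not for TUBB2A. TTTGAA, the core letters of the cell cycle homology region (TTCAAA on the other strand), was found once for TUBB4B, apart from its CCAAT matches, and in neither of the others. Among all 35116 RefSeq promoter windows, 34.6% held CCAAT and 15.2% held TTTGAA on either strand. All 10 isotypes had at least 1 of 15 starts in the table. Counted by start, as for all windows, 9 of the 15 held CCAAT and 4 held TTTGAA. Windows of TUBA1C overlap in part and share matches. Counted by isotype, 7 held CCAAT and 2 held TTTGAA at a start, which is not comparable with the share of windows. The 3 isotypes with the largest changes were thus not alike in these letters, and no match says only that the letters are not in the window.

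Tubulin mRNA levels are also set after transcription. When free tubulin dimers are plentiful, TTC5 recognizes the first residues of the new chain on the ribosome and the mRNA is degraded, a loop known as tubulin autoregulation. The first 30 coding bases are shown with the 4 codons that encode this signal in capitals.
TUBA1A: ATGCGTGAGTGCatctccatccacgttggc
TUBA4A: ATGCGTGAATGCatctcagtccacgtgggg
TUBB: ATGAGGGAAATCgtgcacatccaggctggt
TUBB4B: ATGAGGGAAATCgtgcacttgcaggccggg
TUBB2A: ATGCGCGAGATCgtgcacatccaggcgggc
TUBB and TUBB4B had the same letters in these 4 codons, and TUBB2A had synonymous ones. TTC5 itself was at 1.42, 1.33 and 1.31 FPKM in DMSO and 1.74, 1.61 and 1.598 in PD, every PD library being higher. Its log2 fold change of 0.17 did not pass the threshold (adjusted p = 0.072 by limma). In limma voom on whole fragments the change was 0.29 and did pass (adjusted p = 0.014), so the call depends on the method.

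Genes that fold, modify, nucleate or bind tubulin were looked up from lists chosen by function. Over 7 lists with 97 entries, 75 genes were tested. In PD-treated cells 27 of them were higher and 26 lower, beside 31.9% and 26.2% of all tested genes. The lists did not move alike, as the plot of log2 fold changes by list shows. These shares of all tested genes are the background for the counts of each list below. The counts of the gamma-tubulin and the destabilizing lists were near them.

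The chaperonin CCT, with its partner prefoldin, folds newly made tubulin. Of its 14 genes 11 were lower and none higher, including all 8 subunits of CCT, with a median log2 fold change of -0.21. CCT8 was at 128.2, 125.9 and 129.0 FPKM in DMSO and 96.5, 88.2 and 91.8 in PD (log2 fold change -0.47, SE 0.04). CCT6A fell by 0.41 (SE 0.03) and the prefoldin subunit VBP1 by 0.40 (SE 0.04), with adjusted p-values up to 0.000148 by limma for these 3. The summed FPKM of the 14 genes was 1089 to 1100 in DMSO and 924.9 to 934.6 in PD, while that of the 10 isotypes was higher in PD.

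The tubulin cofactors assemble the alpha-beta dimer after folding. Of 7 tested genes in the list of cofactors and autoregulation, 4 were higher and none lower, with a median of 0.21. TBCD, which binds beta tubulin, was at 3.87, 3.92 and 4.03 FPKM in DMSO and 6.05, 5.91 and 5.79 in PD (log2 fold change 0.49, SE 0.05). TBCB, which binds alpha tubulin, rose by 0.46 (SE 0.09), and the small GTPase ARL2, a partner of TBCD, by 0.33 (SE 0.09). ARL2 shares exons with a readthrough gene, and its call was lost without PD replicate 2 (adjusted p = 0.053).

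Among the enzymes that modify tubulin, 9 of 16 tested genes were higher and 2 lower in PD, with a median of 0.28. SIRT2, a deacetylase of tubulin and other proteins, was at 5.16, 5.44 and 5.82 FPKM in DMSO and 14.8, 14.9 and 14.3 in PD (log2 fold change 1.28, SE 0.05, adjusted p = 3.4e-06 by limma). VASH1, the carboxypeptidase that removes the terminal tyrosine of alpha tubulin, was low, at 0.27, 0.17 and 0.25 FPKM in DMSO and 1.74, 1.36 and 1.54 in PD, and rose by 1.05 (SE 0.10). The ratio of its means was 6.68, and the log2 change was 2.32 with a pseudocount of 0.1 and 2.73 in voom. TTL, the ligase that restores this tyrosine, was at 9.38, 9.41 and 9.34 FPKM in DMSO and 13.3, 13.9 and 13.0 in PD, and rose by 0.47 (SE 0.04, adjusted p = 5.81e-05 by limma); it was named after its values had been seen. TTLL1, a subunit of a polyglutamylase, rose by 0.99 (SE 0.15) from 0.89, 0.34 and 0.43 FPKM to 1.80, 1.99 and 2.42, with 1.81 at a pseudocount of 0.1 and 1.96 in voom. The antisense genes of VASH1 and TTLL1 overlap their exons.

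Of the proteins that bind the microtubule lattice or its plus end, 7 of 14 tested were higher and 6 lower. MAP1A, a neuronal microtubule-associated protein, went from 0.42, 0.32 and 0.31 FPKM to 3.24, 3.34 and 3.29 (log2 fold change 1.67, SE 0.07). The ratio of its means was 9.38, and the log2 change was 2.92 with a pseudocount of 0.1 and 3.23 in voom. The plus-end protein CLIP2 went from 6.74, 6.11 and 6.49 to 15.7, 16.3 and 17.5 (1.23, SE 0.05). The end-binding protein MAPRE3 rose by 0.76 (SE 0.07), while its abundant relative MAPRE1 was at 69.8 ± 4.36 FPKM in DMSO and 69.4 ± 2.23 in PD. Its log2 fold change of -0.01 was not called and its sign varied between settings. Among those that fell were 2 abundant ones, which were picked with their values in view. The polymerase CKAP5 went from 57.1 ± 1.05 to 40.2 ± 2.08 FPKM and the lattice protein MAP4 from 41.9 ± 0.70 to 29.7 ± 0.20. The summed FPKM of the list was 239.5 to 251.2 in DMSO and 224.6 to 229.5 in PD.

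Among destabilizing and severing proteins, 4 of 10 tested were higher and 3 lower, which is near the 31.9% and 26.2% of all tested genes. KIF2C, the kinesin that depolymerizes microtubules at centromeres, fell from 44.6, 46.5 and 44.5 FPKM to 27.99, 28.1 and 30.6 (log2 fold change -0.63, SE 0.04), and FIGN, a severing ATPase, fell by 0.48 (SE 0.09). STMN1, which sequesters tubulin dimers, was at 40.6 ± 0.36 FPKM in DMSO and 44.5 ± 0.73 in PD; it rose by 0.13 (SE 0.03, adjusted p = 0.00691 by limma), a call that was lost under upper quartile scaling.

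Gamma tubulin nucleates microtubules at the centrosome. TUBG1, its main gene, was at 28.1, 29.7 and 31.9 FPKM in DMSO and 47.1, 50.1 and 52.6 in PD (log2 fold change 0.72, SE 0.06, adjusted p = 4.7e-05 by limma). MZT1, a small subunit of the gamma-tubulin ring complex, fell by 0.50 (SE 0.06) and TUBE1, epsilon tubulin of the centriole, by 0.46 (SE 0.08). In that list 3 of 13 tested genes were higher and 4 lower, not far from the 31.9% and 26.2% of all tested genes. Of the 8 other alpha and beta tubulin genes looked up, 7 were in the table, and their sum was 0.83 to 1.41 FPKM in DMSO and 0.49 to 0.64 in PD. TUBA3D was the only one tested (log2 fold change -0.25, adjusted p = 0.131 by limma), so the 10 isotypes made up nearly all alpha and beta tubulin transcript in the table.

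**Figure D4:**
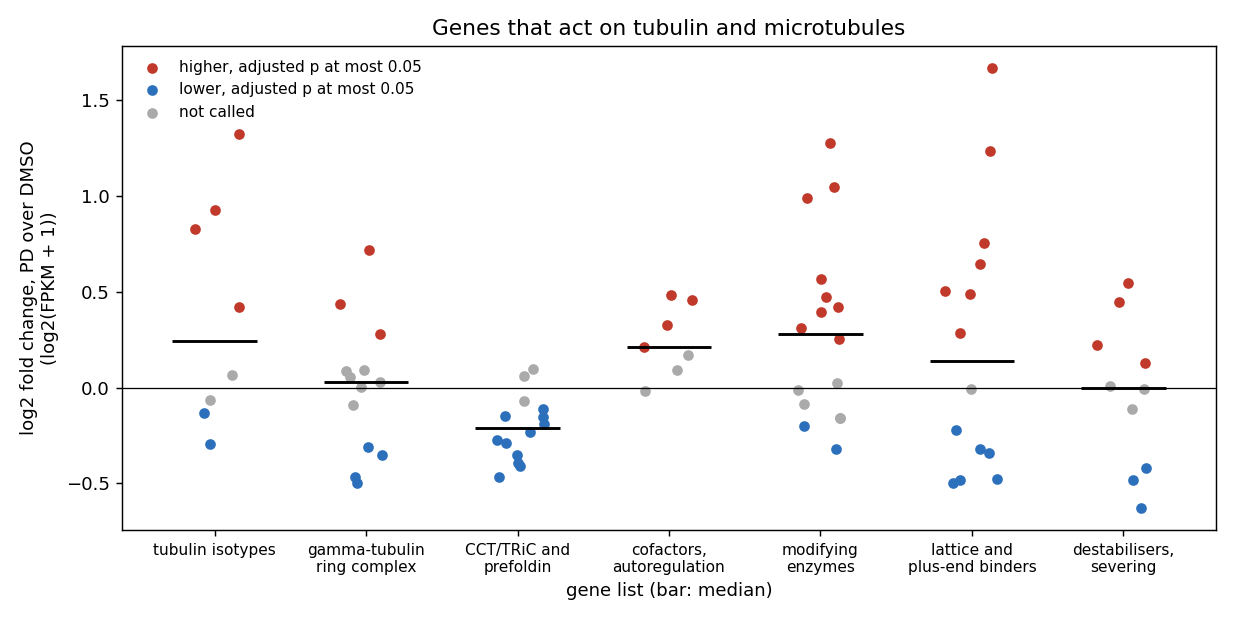
Log2 fold change of PD over DMSO on the log2(FPKM + 1) scale (y axis) for every tested gene of the isotypes and of 6 lists of genes that act on tubulin (x axis). Points are genes, colored by call (adjusted p threshold 0.05), and bars are medians; CCT and prefoldin have no gene called higher, with a median of -0.21, whereas the modifying enzymes have a median of 0.28.

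Markers of cell state and identity were measured in the same libraries. Of 12 genes of the G2 and M phases, when the spindle is used, 11 were lower in PD, beside 26.2% of all tested genes. The remaining 1, AURKB, was higher. The summed FPKM of the 12 was 648.6 to 658.0 in DMSO and 402.9 to 423.5 in PD. TOP2A, which untangles chromosomes, was at 103.8, 101.1 and 99.6 FPKM in DMSO and 54.1, 46.4 and 45.9 in PD, and UBE2C, an enzyme of mitotic exit, at 84.04, 84.1 and 89.1 against 45.4, 44.9 and 45.1. The part of this change in the tubulin results was not tested, and fewer cells in these phases and less RNA per cell cannot be told apart in bulk samples. Of 14 neuron markers 7 were in the table, 6 of those were under 1 FPKM in every library, and their sum was 9.25 to 10.2 FPKM in DMSO and 14.03 to 15.7 in PD. Nearly all of it came from INA, an intermediate filament (8.38 to 9.21 against 12.5 to 13.9), with SNAP25 next at 0.25 to 0.87 over both groups. Of the other members in the table, SYT1 and RBFOX3 were lower in every PD library, SYP and MAP2 were higher and NEFH overlapped.

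Defining markers of the labelled cell type were near 0. Of 18 hepatocyte markers, 9 were in the table and 7 of those were under 1 FPKM in every library, among them APOA1, SERPINA1, FGA, FGG, TF and HNF4A, while ALB, AFP and 7 others were not analysed here. CPS1, a urea cycle enzyme, was the exception, at 221.6 to 228.5 FPKM in DMSO and 106.0 to 111.2 in PD, and RBP4 reached at most 1.73. Thus the sum of the list, 222.2 to 229.0 in DMSO and 107.4 to 112.6 in PD, was CPS1. The epithelial list summed to 103.1 to 109.1 FPKM in DMSO and 125.5 to 132.2 in PD. Its keratin KRT8 was at 50.1 ± 2.04 in DMSO and 68.9 ± 2.77 in PD. KRT18 was at 46.5 ± 1.37 and 47.7 ± 0.71, with overlap. Of the other members in the table, CLDN4 was higher and CDH1, under 1 FPKM, lower in every PD library, and EPCAM overlapped. Of the fibroblast markers, VIM rose from 20.7 ± 0.66 to 29.6 ± 0.71 FPKM and COL1A1 was at 3.46 ± 0.36 and 3.45 ± 0.20, with sums of 24.8 to 26.5 and 33.6 to 35.1. The other members in the table did not share the rise of VIM, since DCN and THY1, both under 1 FPKM, were lower in every PD library, COL3A1 was near 0 and PDGFRB overlapped. Their part in the tubulin results was not tested.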

How the data were processed

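RNA of 3 PD and 3 DMSO dishes was grouped by the sample labels. The dishes were replated and then divided at random between the treatments, so p-values measure the spread between dishes of 1 experiment, which may be technical. For each dish the authors made a NEBNext Ultra poly(A) library, mapped the read pairs with HISAT2 (hg38), counted genes with HTSeq 0.6.0 and deposited FPKM; the annotation release is not given in the sources used here. The labels give the dose of PD printed here, and the paper states a somewhat lower one. Symbols are from GENCODE release 44 (28161 of 28563 identifiers).

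Values were fitted as log2(FPKM + 1), for means from 0.5 FPKM up, with limma 3.58.1 in R 4.3.3 (intensity-dependent prior variance, no covariates), which was tested on simulated data. Shares were compared by exact permutation tests in scipy 1.17.1. Whole fragments were worked back from the FPKM steps for all but 2 genes (13420 with the GENCODE exon length, within 0.01 fragment, and 15141 with a common step, within 0.002), which shows depth and allows limma voom. Where several steps were possible, as for TUBB2A, TUBB2B and TUBB3, fragments are known only up to a common multiple. Totals ranged from 16763318 to 17274927 fragments (DMSO) and from 16308476 to 18071632 (PD). No libraries of a group were duplicates (mean chi-square per gene 2.34 to 3.81 within groups, about 1 from sampling noise alone).

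The isotypes and gene lists were chosen with earlier results of these data known. Named genes were all 10 isotypes; of each list acting on tubulin up to 3 called genes with the largest change, with TTC5, TUBG1, STMN1 and MAPRE1; of each marker list the 2 with the highest mean; and the 3 genes of at least 10 FPKM most correlated with the summed isotypes. Some items under this rule are not reported here. Alternatives were a pseudocount of 0.1, no minimum, a replicate block, median-of-ratios and upper quartile scaling, voom, other denominators for the shares and leaving out each library.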

Additional observations from a re-analysis of the deposited data

How the results depend on the processing

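The 4 isotypes called higher numbered 4 or 5 and the 2 called lower numbered 1 to 3 under the alternatives, the fifth being TUBB2B without a minimum and in voom. Isotypes past 2-fold numbered 1, but 2 with a pseudocount of 0.1 and 3 in voom, where TUBB2B was kept only through its PD libraries. Leaving out 1 library gave 4 higher, 1 to 2 lower and 1 to 2 past 2-fold; without DMSO replicate 1, TUBA1C lost its call, and without PD replicate 3, TUBA1A passed 2-fold. The 8 shares without overlap numbered 8 or 9 under the alternatives, the ninth being TUBB6 in fragments and without DMSO replicate 3; its difference of 0.08 percentage points ranged from -0.003 to 0.153 when 1 library was left out. Under upper quartile scaling the log2 ratio of the summed isotypes was 0.31 instead of 0.39 (0.37 to 0.41 when 1 library was left out) and TUBA1B turned to -0.017; its share of alpha FPKM differed by 2.37 percentage points in the other direction from its share of the total (-1.37). MAPRE1, at -0.01, ranged from -0.058 to 0.027 when 1 library was left out and turned positive without DMSO replicate 1, DMSO replicate 2 or PD replicate 3. The causes were not tested. Of all called genes, 54.8% were higher (4588 against 3780), and 44.8% under upper quartile scaling (3798 against 4675). DEGs numbered 520, 1248 with a pseudocount of 0.1 and 1766 in voom, which called 5173 genes higher and 4232 lower among 15130. The labels share replicate numbers, but the correlations of same-numbered deviations were -0.027, -0.005 and 0.090, so they give no pairing; with the replicate block the isotypes had 4 higher, 2 lower and 1 past 2-fold, and no call on an isotype changed. Depth limits TUBB3 and TUBB2B, and intervals cover the spread between dishes.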

Other observations

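Genes with a pattern like that of the summed isotypes were named by their correlation over the 6 libraries, which share the same 2 groups, so that any gene that separates the groups in this direction scores high. Among 4833 other genes whose mean reached 10 FPKM, 252 had a Pearson r above 0.99. DVL3, a Dishevelled protein of Wnt signaling, had the highest value (r = 0.9997), at 25.6, 26.6 and 26.3 FPKM in DMSO and 33.3, 34.2 and 34.0 in PD. EBP, an isomerase of cholesterol synthesis (r = 0.9993), was at 23.1 ± 1.14 and 37.6 ± 0.61 FPKM, and FEN1, a flap endonuclease of DNA replication (r = 0.9991), at 70.4 ± 1.83 and 96.9 ± 1.76 (SD, n = 3 each). Exons of EBP and FEN1 overlap those of another gene on the same strand.

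The table also holds 13 further genes whose symbols start with TUBA or TUBB, mostly pseudogenes, of which 11 had a mean under 0.5 FPKM. TUBA5P, an unprocessed pseudogene on chromosome 1 that was named after its values had been seen, was at 0.10, 0.18 and 0.40 FPKM in DMSO and 1.497, 0.93 and 1.18 in PD (log2 fold change 0.85, adjusted p = 0.002 by limma). Its exons overlap those of an unnamed gene on the same strand. The other, TUBBP1, was at 2.35 ± 0.42 FPKM in DMSO and 2.40 ± 0.62 in PD (log2 fold change 0.01, adjusted p = 0.962 by limma).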
